A study of Mus musculus with 30 samples.

Results

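NADPH oxidases are membrane enzyme complexes that pass electrons from NADPH to oxygen and so make superoxide or hydrogen peroxide. The genes described here are 7 subunits: Cybb, Cyba, Ncf1, Ncf4, Rac1, Rac2 and Nox4. They were chosen by symbol, as all probe sets that the array annotation assigns to these symbols alone, which gave 15 probe sets of 45101 on the array and 7 of 18193 genes. The symbols, and the gene lists used below, were chosen with earlier results of these data known. Counts of them beside shares of all genes are therefore descriptions only. The samples came from male C57BL/6 mice aged 8 to 10 weeks at the start. Day 0 mice had no treatment. The others received angiotensin II, a peptide hormone that raises blood pressure, from an implanted osmotic pump at 1500 ng/kg/min for 1, 3 or 7 days; a group with a pump but without the peptide is not part of these samples. Whole-tissue RNA of heart (3 arrays at each of 4 days), kidney (2 per day, 4 days), brain (2 per day, without day 1) and vessel (1 per day, 4 days) was hybridized to 30 Affymetrix mouse arrays. The labels call the arrays of a group biological replicates and do not say whether the organs of a mouse were shared between tissues, so p-values measure the spread between these samples.

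In phagocytes the catalytic subunit NOX2 (Cybb) is held in the membrane by p22phox (Cyba) and stays inactive until cytosolic proteins, among them p47phox (Ncf1) and p40phox (Ncf4), and a Rac GTPase join it. Rac2 is the Rac of blood cells, whereas Rac1 is made by nearly every cell. NOX4 (Nox4) also needs p22phox but neither the cytosolic subunits nor Rac, makes mainly hydrogen peroxide at a rate that follows its amount, and is best known from the kidney, where it was first called Renox, and from vascular cells and fibroblasts. In whole tissue, more cells of a type and more RNA per cell cannot be told apart.

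RefSeq promoter windows (GRCm38.p6, 250 bases before to 50 after the gene start) were at hand for 4 of the 7 genes. Those of Cybb, Ncf1 and Nox4 are printed because these genes stand for the membrane core, the cytosolic part and the other catalytic subunit. In heart the mean signal was highest at day 7 for Nox4 and at day 1 for Cybb and Ncf1. Any part of these sequences in that was not tested. Capitals mark GAGGAA or its reverse complement TTCCTC, letters of the kind bound by the myeloid factor PU.1 and other Ets proteins, searched on both strands.
Cybb, chrX:9469275-9469574, minus strand: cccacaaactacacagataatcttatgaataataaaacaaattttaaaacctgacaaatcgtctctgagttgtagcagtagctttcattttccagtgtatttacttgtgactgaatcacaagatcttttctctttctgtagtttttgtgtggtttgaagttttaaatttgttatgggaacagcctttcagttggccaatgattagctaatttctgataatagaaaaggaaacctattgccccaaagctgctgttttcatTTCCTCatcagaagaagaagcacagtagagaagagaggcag
Ncf1, chr5:134229576-134229875, minus strand: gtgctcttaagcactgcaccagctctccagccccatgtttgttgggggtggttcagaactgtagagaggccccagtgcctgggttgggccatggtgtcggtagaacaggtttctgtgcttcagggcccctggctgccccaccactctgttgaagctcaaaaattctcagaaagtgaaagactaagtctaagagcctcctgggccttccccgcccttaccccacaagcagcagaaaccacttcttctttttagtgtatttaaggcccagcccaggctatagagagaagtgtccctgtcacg
Nox4, chr7:87246399-87246698, plus strand: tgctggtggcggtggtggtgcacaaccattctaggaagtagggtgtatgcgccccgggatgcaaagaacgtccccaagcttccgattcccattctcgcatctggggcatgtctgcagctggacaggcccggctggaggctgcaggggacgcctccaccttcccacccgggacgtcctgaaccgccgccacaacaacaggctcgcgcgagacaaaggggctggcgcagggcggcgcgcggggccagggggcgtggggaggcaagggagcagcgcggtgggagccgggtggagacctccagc
The Cybb window held 1 match, at bases 260 to 265 counted from its 5′ end, and the windows of Ncf1, Nox4 and Cyba held 0. Of all 32851 windows in the table, 28.3% held at least 1 match, so a match in 1 of 4 windows is near the general share. The windows differed in base composition. The Nox4 window was 68.3% G and C with 24 CG pairs, the Cyba window 60.7% with 9, the Ncf1 window 54.0% with 3 and the Cybb window 35.3% with 1, against medians of 52.7% and 7 over all windows. A match describes letters only, and no match says nothing about a factor.

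The arrays of each tissue carried that tissue's defining markers: Myh6 in heart was 13289 to 15525, Slc34a1 in kidney 3172 to 5376 and Snap25 in brain 7706 to 8666 (signal intensity, the linear unit of the deposited values). The vessel arrays had Myh11 of smooth muscle at 2484 to 5057 but also the fat genes Adipoq at 9496 to 12769 and Ucp1 at 11558 to 22424, and Myh6 at 324 to 4366. Other arrays carried markers of another organ or of blood cells. The day 0 replicate 1 brain array had the kidney gene Umod at 335 (8.30 to 184 on the other 5), the day 0 replicate 2 brain array had the neutrophil gene S100a8 at 3658 (132 to 384 on the others), and the day 0 and day 3 replicate 2 kidney arrays had the adrenal gene Cyp11a1 at 307 and 712.

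Before treatment the subunits fell into tissue patterns of their own. Changes and differences below are of log2(intensity + 16) from limma fits, and a gene passed where its Benjamini-Hochberg adjusted p, taken over the tested genes of that fit, was under 0.05; signals of different probe sets are not compared with each other. Nox4 was strongest in kidney. It read 3199 and 3843 in the 2 untreated kidneys, 44.8, 53.8 and 52.1 in the 3 untreated hearts, 63.5 and 7.29 in the 2 untreated brains and 1758 in the 1 untreated vessel sample. Untreated kidney and heart did not overlap, and heart was lower by a log2 difference of -5.74 ± 0.39 (SE, limma adjusted p = 1.36e-10), or -5.60 without the kidney array with adrenal markers. Kidney was at least 91.3-fold above brain, and at least 151-fold without the brain array that carried kidney markers, with brain values below the 40th percentile of their array raised to it. That array alone lifted brain: Nox4 lay between 7.29 and 11.8 on the other 5 brain arrays, below that percentile.

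Cyba, the membrane partner that NOX2 and NOX4 share, was also strongest in kidney. It read 4120 and 3215 in untreated kidney, 666, 521 and 567 in heart, 141 and 128 in brain and 314 in vessel, so no values of different tissues overlapped. The log2 difference of heart was -2.61 ± 0.20 from kidney (limma adjusted p = 6.51e-10; -2.79 without the kidney array with adrenal markers) and 1.99 ± 0.20 from brain (limma adjusted p = 2.80e-08; 2.05 and 1.92 without the brain array with kidney or with neutrophil markers). Cybb, by contrast, read 112 and 123 in untreated kidney, just below heart (168, 133 and 165), and the difference of 0.35 ± 0.36 did not pass (limma adjusted p = 0.431). Brain had Cybb at 21.5 and 65.7. The higher of these was the array with neutrophil markers, and heart exceeded brain by 1.62 ± 0.36 (limma adjusted p = 0.000582) with both untreated brain arrays and by 2.18 without this one. For kidney against brain the difference was 1.27 ± 0.40 (limma adjusted p = 0.00924), 1.83 without the brain array with neutrophil markers, and 0.71 with an adjusted p of 0.178 without the other untreated brain array.

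The cytosolic and Rac subunits differed less between untreated tissues. Ncf1 read 114, 94.4 and 129 in heart, 52.1 and 64.3 in kidney and 53.6 and 102 in brain, and no tissue pair passed. Ncf4, at 53.4, 52.2 and 51.1 in heart against 22.5 and 30.5 in brain, passed only between these tissues (0.69 ± 0.29, limma adjusted p = 0.0424), and that call was lost without any of the 5 untreated heart or brain arrays (adjusted p 0.0584 to 0.202). Rac2 read 56.6 to 69.4 in heart, 52.9 and 56.2 in kidney and 27.1 and 51.6 in brain, with no tissue pair past the threshold. Rac1, on its brightest probe set, ran the other way: 2864 and 2801 in brain, 1669 and 1861 in kidney and 1330 to 1365 in heart, with heart 1.06 lower than brain on the log2 scale (-1.06 ± 0.09, limma adjusted p = 6.47e-09; -1.05 and -1.08 without either untreated brain array). A second Rac1 probe set did not show this order (462 and 449 in brain, 725, 704 and 705 in heart), and with the mean of all Rac1 probe sets the 3 tissue differences did not pass. In all, 3 of 7 subunits passed between heart and kidney, 4 between heart and brain and 4 between kidney and brain (Nox4, for which brain gives only a bound, among them), where 55.7%, 72.9% and 66.0% of all tested genes did, so differing between organs did not set these genes apart.

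**Figure D1:**
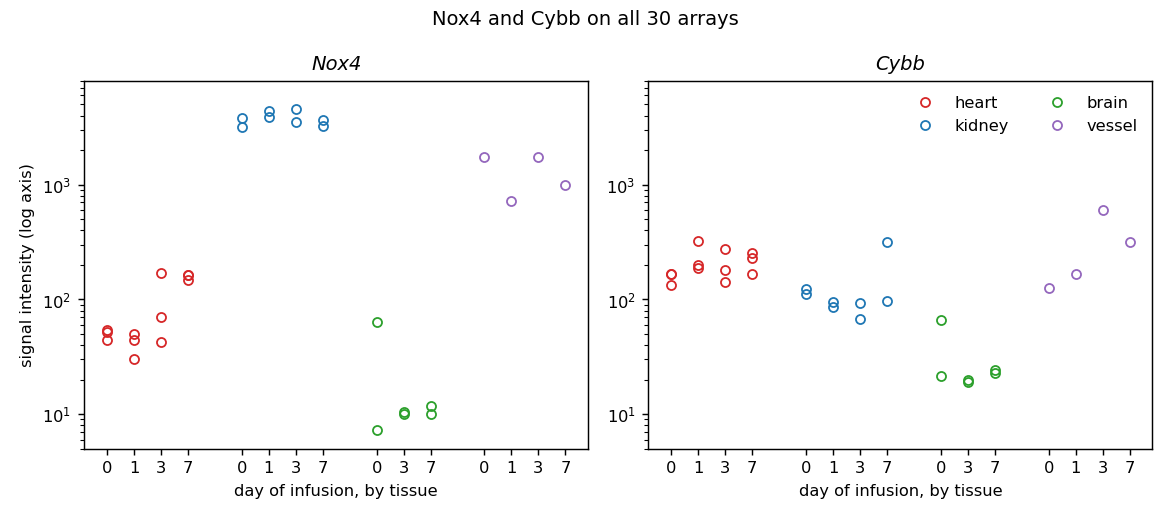
Signal intensity (log axis) of Nox4 and Cybb on each of the 30 arrays, by tissue and day of angiotensin II, 1 circle per array. Nox4 lies between 3199 and 4582 on the kidney arrays and between 30.1 and 171 on the heart arrays, while Cybb overlaps between heart and kidney.

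After 1 day of angiotensin II the blood-cell subunits Ncf4, Ncf1 and Rac2 rose in heart, by close to 2-fold on average and very unequally between the 3 hearts. Ncf4 read 53.4, 52.2 and 51.1 at day 0 and 112, 234 and 72.8 at day 1, a log2 change of 1.05 ± 0.28 (SE, n = 3 and 3, limma adjusted p = 0.0282). All 3 treated hearts lay above all untreated ones, heart 2 by the most and heart 3 by the least. Ncf1 read 114, 94.4 and 129 and then 263, 373 and 134, a change of 0.99 ± 0.27 (limma adjusted p = 0.0331). Its treated heart 3 was barely above the highest untreated heart. Rac2 read 56.6, 61.1 and 69.4 and then 125, 192 and 85.5, a change of 0.88 ± 0.25 (limma adjusted p = 0.0379), with the same order of the treated hearts.

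The membrane core moved in the same direction by less and did not pass. Cybb read 168, 133 and 165 at day 0 and 189, 322 and 201 at day 1, so that the groups did not overlap, yet the change of 0.53 ± 0.23 had a limma adjusted p of 0.153. Cyba read 666, 521 and 567 and then 854, 1127 and 622; the groups overlapped and the change was 0.52 ± 0.20 (limma adjusted p = 0.0979). Nox4 read 44.8, 53.8 and 52.1 and then 44.0, 30.1 and 49.8, a change of -0.22 ± 0.30 (limma adjusted p = 0.699).

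The call for Rac1 depended on the probe set. The brightest, which stands for the gene, read 1365, 1350 and 1330 and then 1537, 1582 and 1305 (0.12 ± 0.09, limma adjusted p = 0.444). The second Rac1 probe set read 725, 704 and 705 and then 1208, 1573 and 868, with no overlap, and passed in the fit over all 24416 tested probe sets (0.72 ± 0.18, limma adjusted p = 0.0215), where 11.5% of probe sets did. The suffix of the brightest probe set marks probes that can match several transcripts, and the last Rac1 probe set stayed between 5.06 and 8.57 on all 30 arrays. Among the other genes, the second probe set of Ncf1 read 61.5, 48.4 and 56.8 and then 88.7, 141 and 61.3 (0.60 ± 0.21, limma adjusted p = 0.079), and the 2 weaker probe sets of Cybb gave 0.55 ± 0.22 and 0.18 ± 0.16. The weakest probe sets of Ncf1 and Rac2 were not tested in heart.

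In all, 3 of the 7 genes passed at day 1, all of them higher, where 13.4% of 14040 tested genes passed, 4.86% as higher and 8.57% as lower. The treated hearts lay wholly above the untreated ones for 4 of 7 (Cybb, Ncf1, Ncf4 and Rac2), against 11.4% of tested genes. The 3 calls rest on few hearts. None of them passed without any 1 of the untreated hearts or without treated heart 1 or 2. Ncf4, for example, had adjusted p-values of 0.0848, 0.0850 and 0.0665 without untreated heart 1, 2 or 3, and of 0.0805 and 0.069 without treated heart 1 or 2, with a change of 0.64 in the last case. Ncf1 had 0.0933, 0.121, 0.0518, 0.128 and 0.133 and Rac2 0.125, 0.108, 0.0634, 0.116 and 0.155 in the same 5 cases. Rac2 was also lost without day 3 heart 2 (0.0528) or day 7 heart 3 (0.0531). Without treated heart 3, 4 of the 7 passed, Cyba being the fourth, and the change of Ncf4 was 1.39 (limma adjusted p = 0.00105). Calls over all 14040 tested genes moved as well. They numbered 1886 with all hearts and 3441 without treated heart 3. Without untreated heart 1, 2 or 3 they numbered 574, 631 and 1452, and without treated heart 1 or 2, 405 and 623. A fit on the 6 day 0 and day 1 arrays alone called 0 of 7.

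Medians of white blood cell markers ranked the 3 treated hearts as Ncf4, Ncf1 and Rac2 did. Cybb did not share this order, with log2 changes of 0.26, 0.99 and 0.35 on treated hearts 1, 2 and 3. Over the 8 pan-leukocyte genes, of which 7 passed as higher at day 1, the median log2 change was 1.30, 1.79 and 0.42 in the 3 treated hearts, and their summed intensity was 2173 to 2828 at day 0 and 3508 to 8842 at day 1. Of the 12 macrophage genes 4 passed as higher, with medians of 0.74, 1.01 and 0.27 and sums of 7617 to 9602 and then 9779 to 16659. Of the 8 tested neutrophil genes 4 passed as higher, with medians of 1.15, 1.40 and 0.25 and sums of 383 to 1472 and then 1646 to 7665. S100a8 of neutrophils read 71.0, 89.3 and 459 at day 0 and 2397, 3128 and 662 at day 1, while Mpo and Elane of neutrophil precursors stayed at 18.5 to 29.2 and 14.6 to 22.9 over all 12 hearts. The part of these cells in the change of the subunits was not tested.

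**Figure D2:**
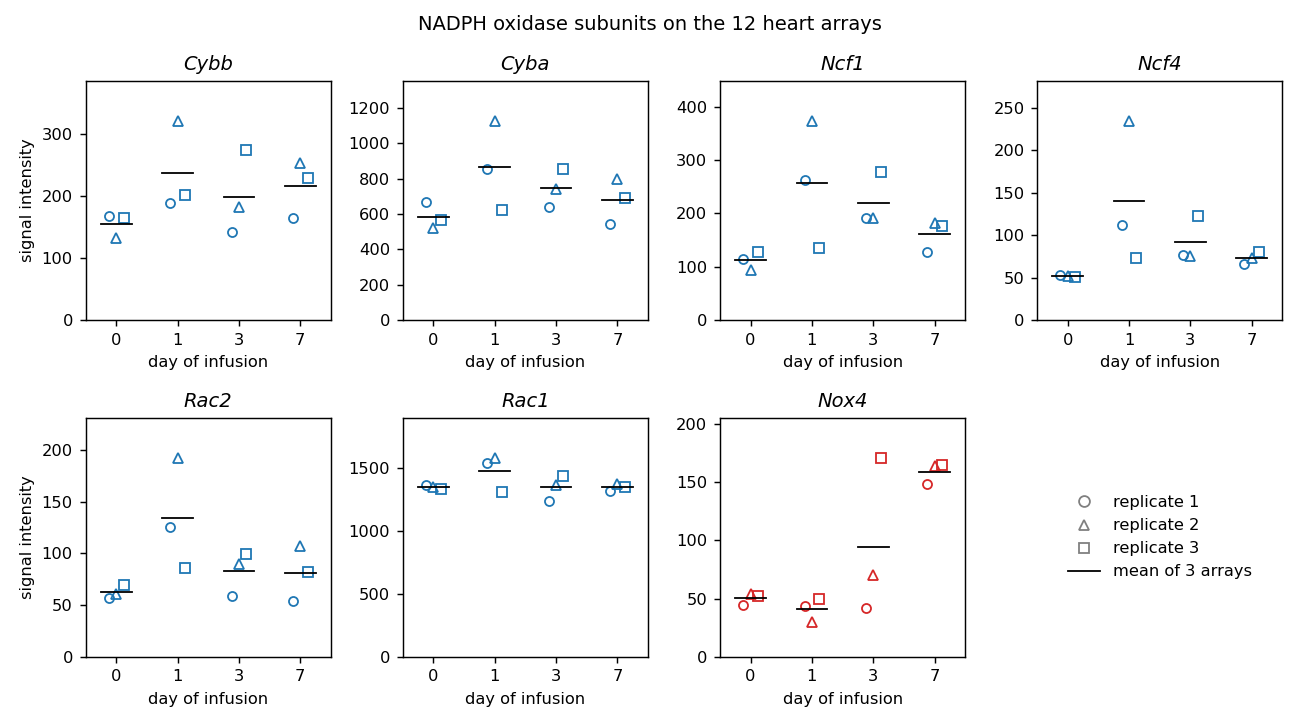
Signal intensity of the 7 subunits on the 12 heart arrays by day of angiotensin II. Symbols mark the replicate number, which the labels do not say links hearts of different days, and bars the mean of 3 arrays. Ncf4, Ncf1 and Rac2 are highest at day 1 on replicate 2, and Nox4 is at 149 to 165 on all 3 day 7 arrays.

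**Figure D3:**
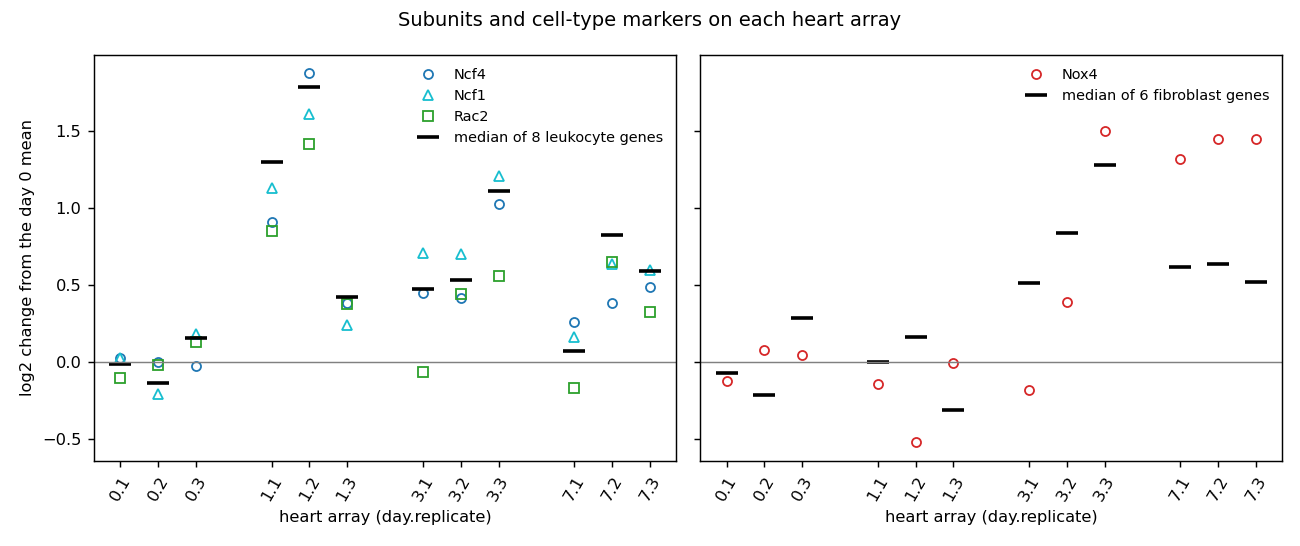
Log2 change of each heart array from the mean of the day 0 arrays, for Ncf4, Ncf1 and Rac2 beside the median of 8 pan-leukocyte genes (left) and for Nox4 beside the median of 6 fibroblast genes (right). The day 1 arrays rank alike for the 3 subunits and the leukocyte median, and Nox4 is at 1.32 to 1.45 on the day 7 arrays where the fibroblast median is 0.52 to 0.63.

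Nox4 took a later course. It read 44.8, 53.8 and 52.1 at day 0, 44.0, 30.1 and 49.8 at day 1, 42.3, 70.5 and 171 at day 3 and 149, 164 and 165 at day 7. The 3 day 7 hearts lay close together and above every day 0 and day 1 heart, whereas the day 3 hearts ranged from the untreated level to the day 7 level. The test for a change at any day called Nox4 (moderated F, limma adjusted p = 0.0228) and no other subunit, where 6.55% of tested genes were called (0.0563% in kidney and 0% in brain, with 0 subunits in either). Day 7 exceeded day 1 by 1.63 ± 0.30 (log2, about 3.09-fold, limma adjusted p = 0.0154), where 4.92% of tested genes passed in either direction. Day 7 exceeded day 0 by 1.40 ± 0.30, about 2.65-fold, which did not pass (limma adjusted p = 0.206).

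How firmly day 7 stood apart from day 0 depended in part on the day 3 hearts, whose spread enters the shared estimate: the SD of log2 Nox4 was 0.86 at day 3, 0.11 at day 0 and 0.08 at day 7. Without the day 3 heart at 171 the limma adjusted p of the same difference was 0.00266, without the day 3 heart at 42.3 it was 0.044, and in a fit on the 6 day 0 and day 7 arrays alone it was 6.11e-05. The difference passed in no other fit that left out 1 heart. Over all 12 such fits its limma adjusted p ranged from 0.00266 to 0.771. The any-day call in turn was lost without heart 1 or 2 of day 0 (0.058 and 0.0579), 1 or 2 of day 1 (0.0897 and 0.0685) or any of day 7 (0.0548, 0.0702 and 0.0656). The difference from day 1 was lost without heart 1 or 2 of day 1 (0.0712 and 0.0682) or any of day 7 (0.0519, 0.072 and 0.0536). The second Nox4 probe set, weak in heart, read 15.9, 18.3 and 20.4 at day 0 and 26.1 or more on the 3 day 7 arrays, again without overlap (0.38 ± 0.13, limma adjusted p = 0.477).

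Fibroblast genes were given beside Nox4 for the same hearts. The median change of 6 fibroblast genes was 0.00, 0.16 and -0.31 on the day 1 hearts, 0.51, 0.84 and 1.28 on the day 3 hearts and 0.62, 0.63 and 0.52 on the day 7 hearts, and their summed intensity was 11423 to 17016 at day 0, 17941 to 28881 at day 3 and 18766 to 20715 at day 7. The day 3 heart with the highest fibroblast median was the one with Nox4 at 171. Of these genes only Col1a1, the main chain of type I collagen, passed at day 3 (1.76 ± 0.27, limma adjusted p = 0.0332), and none passed at day 7. The part of fibroblasts in the Nox4 signal was not tested.

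At days 3 and 7 none of the 7 subunits passed against day 0 in limma, where 0.0855% and 0.0499% of tested genes did. At an unadjusted p under 0.05 there were 2 at day 3 (Ncf1 and Ncf4) and 1 at day 7 (Nox4), against 12.0% and 8.88% of tested genes. Ncf1 had a change of 0.87 ± 0.27 at day 3 (192, 191 and 278, all above day 0, as were 7.40% of tested genes, limma adjusted p = 0.24) and 0.47 ± 0.27 at day 7 (127, 182 and 177, overlapping day 0). Among the fits that left out 1 heart, it passed at day 3 in the one without day 1 heart 3 (limma adjusted p = 0.0416). Ncf4 read 77.0, 74.8 and 123 at day 3 and 65.6, 73.1 and 79.8 at day 7, all above day 0 (9.28% of tested genes were at day 7), with changes of 0.63 ± 0.28 and 0.38 ± 0.28. Rac2 (0.31 ± 0.25 and 0.27 ± 0.25), Cyba (0.34 ± 0.20 and 0.20 ± 0.20) and Cybb (0.29 ± 0.23 and 0.42 ± 0.23) overlapped with day 0 on both days, and Rac1 was at 0.00 ± 0.09. No phagocyte subunit passed between day 7 and day 1. None of the 7 passed in limma between day 3 and day 1 or day 7 and day 3 (0.83 ± 0.30 for Nox4 in the last, limma adjusted p = 0.66), where 4.30% and 0% of tested genes did, and 2 and 1 of the 7 had an unadjusted p under 0.05, against 20.1% and 7.00% of tested genes.

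The phagocyte subunits were also set against Nox4 on the same array. At day 1 the change of Ncf4 exceeded that of Nox4 by 1.28 ± 0.38, of Ncf1 by 1.21 ± 0.38 and of Rac2 by 1.10 ± 0.38, none past the threshold (limma adjusted p = 0.065 for Ncf4), which 1.26% of genes passed; 4 of the 6 had an unadjusted p under 0.05, against 5.51% of genes. At day 7 all 6 trailed Nox4, from Ncf1 (-0.94) and Cybb (-0.98) through Ncf4 (-1.03), Rac2 (-1.13) and Cyba (-1.20) to Rac1 (-1.41), and all 6 passed. Since 99.3% of all tested genes passed as well, it says nothing particular about the subunits. At day 3 none of the 6 passed in limma, also at an unadjusted p under 0.05, against 0.128% of genes after adjustment and 15.2% before. The spread of Nox4 is common to every such difference, and the moderated fit gave all 6 subunits the same SE of 0.38. The counts and shares above therefore rest largely on the spread of that 1 gene. With each gene's own variance, 4 of 6 passed at day 7 and 97.8% of genes. At day 1 none of the 6 passed with that variance, and 0% of genes did. Ncf4 then had an adjusted p of 0.987 in the unmoderated fit. The unadjusted p of Cybb at day 1 was 0.0593 in the unmoderated fit and 0.0487 in the moderated one.

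Over the 12 heart arrays, the genes whose signal was most like Cybb were Snx10 (Pearson r = 0.95), 5430427O19Rik (0.93), Pla2g7 (0.92), Gpsm3 (0.92) and Limd2 (0.92). Among the subunits, Cyba (0.84), Rac2 (0.82), Ncf4 (0.78) and Ncf1 (0.75) were nearer to Cybb than Rac1 (0.65) and Nox4 (0.29). Among all other tested genes Cyba, Rac2, Ncf4 and Ncf1 ranked only 87, 124, 247 and 365 by r, so many other genes lay nearer to Cybb. The genes most like Nox4 were Ltbp3 (0.95), a binding protein of latent TGF beta, Itgbl1 (0.95), Pamr1 (0.94), Niban1 (0.93) and Dcaf17 (0.93), and the other subunits lay between -0.17 and 0.29. Over the 8 kidney arrays the genes most like Nox4 were AW549877 (0.96), 1500002F19Rik (0.95), Alg1 (0.94), 4930556L07Rik (0.94) and Armc6 (0.94). These arrays share days of treatment and, within a day, the spread of leukocyte and fibroblast markers described above, so the values are descriptions of likeness only.

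**Figure D4:**
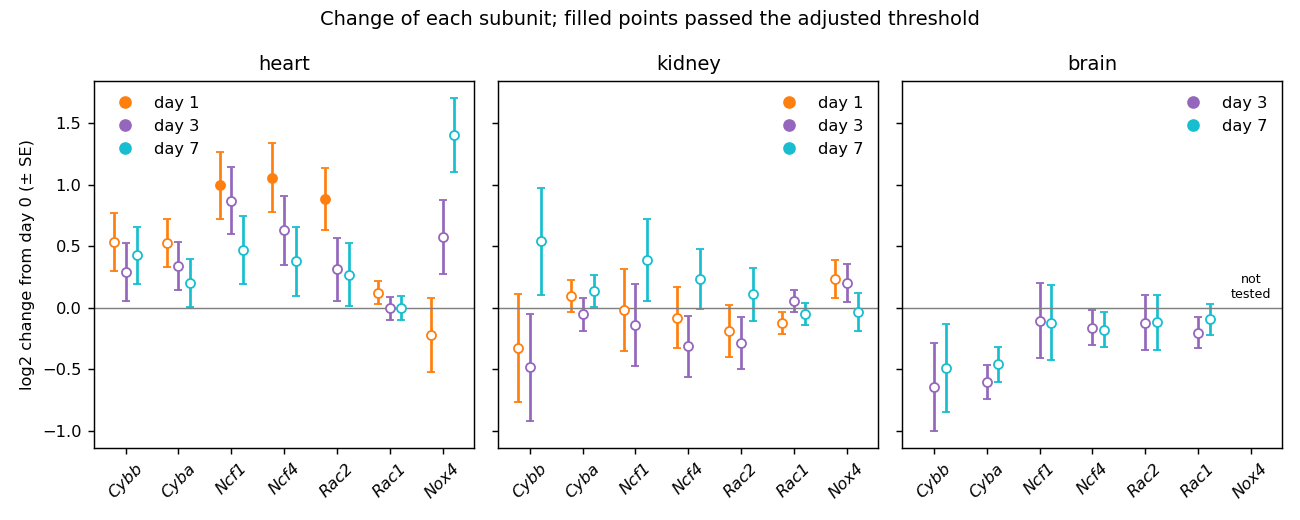
Log2 change from day 0 (± SE) of each subunit in heart, kidney and brain, by day of angiotensin II, from the limma fit of each tissue. Filled points passed the adjusted threshold, which only Ncf1, Ncf4 and Rac2 at day 1 in heart did; Nox4 was not tested in brain.

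In kidney, where Nox4 and Cyba signals were strong, none of the 7 subunits passed at any day. Nox4 read 3199 and 3843 at day 0, 4401 and 3877 at day 1, 4582 and 3538 at day 3 and 3218 and 3648 at day 7, and its largest change was 0.24 ± 0.15 at day 1 (limma adjusted p = 0.498; 0.37 without the arrays with adrenal markers, also not past the threshold). Cyba stayed between 3215 and 4120 on all 8 arrays. On the brightest probe sets no subunit had an unadjusted p under 0.05 at any day in kidney, where 0.5%, 0% and 0% of 14214 tested genes passed at days 1, 3 and 7 after adjustment and 16.3%, 8.46% and 6.68% before. Among the weaker probe sets, the second of Rac1 (0.35 ± 0.09, limma adjusted p = 0.142) and 1 of Cybb (-0.48 ± 0.20, limma adjusted p = 0.299) had one at day 1. Without the 2 arrays with adrenal markers, none of the 7 passed either. Both day 1 kidneys had the fat gene Adipoq at 2318 and 3335, against 110 and 102 at day 0, and day 3 replicate 2 had it at 6176. The part of fat in the day 1 and day 3 values was not tested.

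The blood-cell subunits in kidney followed a single array. Cybb read 112 and 123 at day 0, 85.4 and 95.4 at day 1, 67.2 and 93.1 at day 3 and 96.3 and 318 at day 7. The second day 7 kidney also had the highest Ncf1 (124, against 39.0 to 65.7 on the other 7), Ncf4 (70.2, against 23.4 to 44.1) and Rac2 (81.3, against 40.9 to 56.2). On it the median change of the 8 pan-leukocyte genes was 1.01 and of the 12 macrophage genes 0.63, against -0.00 and -0.06 on the first day 7 kidney. The day 7 change of Cybb was 0.54 ± 0.44 (limma adjusted p = 0.87) with that array and -0.25 without it.

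In brain none of the 6 tested subunits passed at day 3 or 7, and 0% of 14109 tested genes did. All 6 mean changes were below 0 with both untreated arrays. Without the untreated array with neutrophil markers, Ncf1 was at 0.28 and 0.26, Rac2 at 0.20 and 0.20 and Cybb at -0.086 and 0.074 at days 3 and 7. Cyba came nearest. It read 141 and 128 at day 0, 73.5 and 93.8 at day 3 and 94.8 and 92.0 at day 7, with no overlap and changes of -0.60 ± 0.14 (limma adjusted p = 0.662) and -0.46 ± 0.14 (limma adjusted p = 0.666). The changes were -0.54 and -0.39 without the untreated array with kidney markers and -0.67 and -0.53 without the other. It was the 1 subunit with an unadjusted p under 0.05, where 7.38% and 7.13% of tested genes had one. Cybb read 21.5 and 65.7 at day 0 and 19.0 to 24.1 later. On the untreated array with Cybb at 65.7 the neutrophil gene Ngp was at 1175, against 43.0 to 119 on the other brain arrays. Both untreated brains thus carried markers that the treated ones mostly lacked, and their part in these differences was not tested.

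The response of heart was compared with that of kidney and brain by the difference of the changes in a joint fit. None of the 7 subunits passed in limma at any day, where 3.47%, 0.0544% and 0.0272% of tested genes did against kidney at days 1, 3 and 7 and 0.722% and 0.334% against brain at days 3 and 7. Against kidney at day 1, Ncf4 differed by 1.14 ± 0.41 (limma adjusted p = 0.136) and Rac2 by 1.07 ± 0.39 (limma adjusted p = 0.133), or by 1.23 and 1.04 without the untreated kidney with adrenal markers; 3 subunits had an unadjusted p under 0.05, against 18.5% of genes. At day 7 the Nox4 difference from kidney was 1.44 ± 0.55 (limma adjusted p = 0.959) and passed only in a fit on the 4 groups concerned (adjusted p = 0.00496). Without the untreated kidney with adrenal markers it was 1.31. No Nox4 difference from brain is given, since 5 of the 6 brain arrays lay below the percentile of the filter.

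The vessel samples, with 1 array per day and no test, showed the phagocyte subunits highest at day 3. Cybb read 125 at day 0, 167 at day 1, 601 at day 3 and 318 at day 7. Ncf1 read 93.0, 123, 457 and 394 on the same days, Ncf4 43.8, 54.5, 120 and 93.5, Cyba 314, 325, 715 and 519, and Rac2 61.9, 80.7, 129 and 78.5. At day 3 the log2 changes were 2.13 for Cybb, 2.12 for Ncf1, 1.19 for Ncf4, 1.15 for Cyba and 0.90 for Rac2. Rac1 read 1571, 1708, 2082 and 2272. Nox4 did not follow: it read 1758, 714, 1757 and 995, changes of -1.28, -0.00 and -0.81.

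At least 2-fold higher than day 0 were 0 of 7 subunits at day 1, 4 at day 3 and 2 at day 7, against 0.651%, 4.78% and 4.13% of 14295 genes, and Nox4 was at least 2-fold lower at day 1, as were 0.756% of genes. Pan-leukocyte genes were also highest at day 3: their median log2 change was 0.82, 1.99 and 1.55 at days 1, 3 and 7, and that of macrophage genes 0.57, 1.78 and 1.29. The make-up of the 4 samples differed besides. Myh6 of heart muscle read 4366, 2415, 324 and 3712 on the 4 days and the median of 6 fibroblast genes moved by -0.71, 1.14 and 0.91. That of 6 smooth muscle genes moved by -0.58, -0.40 and -0.38. The median of 5 neural genes moved by 0.21, 2.12 and 0.29, at day 3 as far as the leukocyte genes, and that of 2 red cell genes by 0.85, 1.00 and 1.90. The part of these tissues in the subunit values was not tested. With 1 array a day, treatment, day and dissection cannot be told apart.

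**Figure D5:**
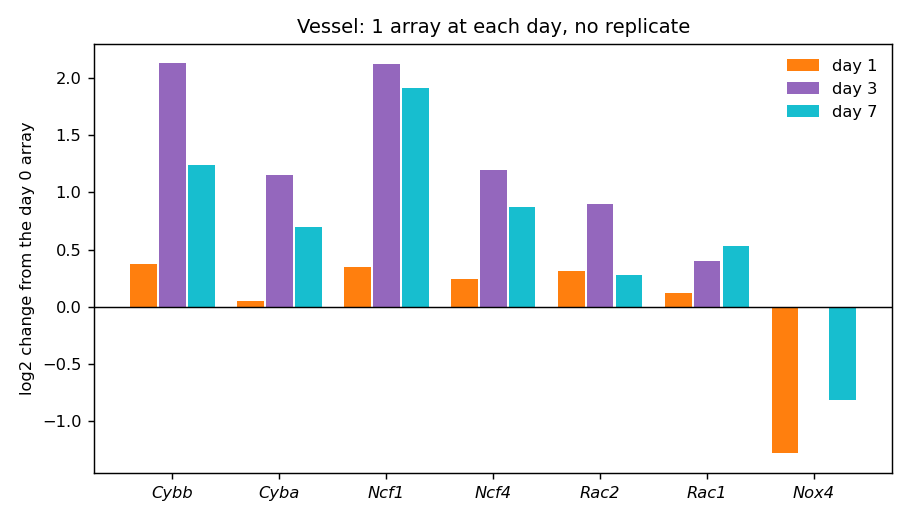
Log2 change from the day 0 array of each subunit in vessel at days 1, 3 and 7, 1 array at each day and so without error bars. Cybb and Ncf1 reach 2.13 and 2.12 at day 3, and Nox4 is at -1.28 at day 1.

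Other genes of the oxidase and of redox balance were taken from lists. Of 8 tested further oxidase genes, among them Cybc1, needed for a stable NOX2, none passed in limma in heart at day 1, 3 or 7. The median change at day 1 was -0.08 against -0.02 over all tested genes. The smallest p-values at day 1 belonged to Poldip2 (-0.27 ± 0.09, adjusted p = 0.0768), a binding partner of p22phox, and Sh3pxd2b (0.40 ± 0.17, adjusted p = 0.146), which encodes an organizer related to p47phox. Of 18 genes that act upstream of the phagocyte oxidase, 2 passed as higher at day 1 and 17 had a positive change, as had 45.2% of all tested genes, with a median of 0.28. Those that passed were Fpr2, a formyl peptide receptor (1.35 ± 0.35, limma adjusted p = 0.0241), and Itgb2, the beta 2 integrin of leukocytes (1.34 ± 0.32, limma adjusted p = 0.0181).

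Of 22 tested antioxidant genes, 3 rose and 1 fell at day 1 in heart. Hmox1, which degrades heme, rose by 1.36 ± 0.31 (limma adjusted p = 0.0156), Gclm of glutathione synthesis by 0.83 ± 0.17 (0.0103) and the thioredoxin reductase Txnrd1 by 0.74 ± 0.19 (0.0232), while Sod2, the mitochondrial superoxide dismutase, changed by -0.32 ± 0.09 (0.0324). Of 10 genes for other sources of reactive oxygen, Ptgs2, the inducible cyclooxygenase, rose by 2.21 ± 0.42 (limma adjusted p = 0.00692) and the monoamine oxidase Maob changed by -0.68 ± 0.18 (limma adjusted p = 0.03). These shares stand beside 4.86% of all tested genes passing as higher and 8.57% as lower. No gene of these 4 lists passed at day 3 or 7 in heart, or at any day in kidney or brain. The calls of single list genes, cell markers included, were not recomputed with 1 heart left out. Calls over all genes in heart at day 1 numbered 405 without treated heart 1 and 3441 without treated heart 3.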

How the data were processed

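The deposited values are signal intensities on a linear scale, 1 per probe set and array. The authors made them with Expression Console of Affymetrix, per the submitters' processing notes; which algorithm and version is not given in the sources used here. Array medians were 35.2 to 37.8, so no further normalization was applied. The number of arrays limits the precision. Values were analysed as log2(intensity + 16), which understates changes of weak signals. Each gene was represented by its probe set with the highest mean over 30 arrays. Genes entered a tissue's fit when above the 40th percentile of the array (22.8 to 26.6) on at least 3 (heart) or 2 (kidney, brain) arrays, which Nox4 was not in brain.

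Group means were fitted with limma 3.58.1 in R 4.3.3, per tissue or, for tissue levels and response differences, jointly; p-values were adjusted by Benjamini-Hochberg across the genes of each fit (threshold 0.05). The script was tested on simulated data. Because Nox4's residual enters every difference from Nox4, the moderated fit gave all genes nearly 1 SE there, and an unmoderated fit was added after the data were seen. The members and gene lists were chosen with earlier results of these data known. The text names every member, the list genes that passed or, where none passed, the 2 with the smallest p, and the 5 genes most correlated with Cybb or Nox4. Alternatives varied the added value, filter, normalization, probe sets, variance model, replicate block and arrays. Promoter windows were matched by symbol for 4 of 7 genes.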

Additional observations from a re-analysis of the deposited data

Results flagged for a closer look

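In 22 cases every array of 1 tissue was above its day 0 mean and every array of another below it, among tissue pairs whose difference was not tested and subunits that passed the filter in both. Vessel, with 1 array a day, is part of 21 of them, and there the rule asks only for the sign of 1 value. The same cases were not counted over all tested genes, so their number says nothing particular about the subunits. All values are differences of log2 changes.

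Nox4 at day 7 changed by 1.40 in heart and by -0.81 in vessel, a difference of 2.22. Cyba at day 7 changed by 0.14 in kidney and by -0.46 in brain, a difference of 0.596.

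Kidney minus vessel at day 1 was -0.702 for Cybb, -0.319 for Ncf4, -0.504 for Rac2, -0.242 for Rac1 and 1.52 for Nox4. At day 3 it was -2.61 for Cybb, -1.51 for Ncf4, -1.19 for Rac2 and 0.199 for Nox4, whose vessel change was -0.00. At day 7 it was -0.581 for Rac1.

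Brain minus vessel at day 3 was -2.77 for Cybb, -1.75 for Cyba, -1.35 for Ncf4, -1.02 for Rac2 and -0.607 for Rac1. At day 7 it was -1.73 for Cybb, -1.16 for Cyba, -2.03 for Ncf1, -1.05 for Ncf4 and -0.399 for Rac2.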

How the results depend on the processing

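Of 316 recomputed counts of passing subunits under alternatives other than leaving out an array, 304 stayed within 1.5 times the reported count, and of 589 recomputed values of single genes 558 kept their direction and their side of the threshold, 16 no longer passed, 10 newly passed and 5 changed sign. Most reported counts were 0, and a 0 that stayed 0 is included among the 304, so that share says little about the counts above 0. The count in heart at day 1, 3 as reported, was 1 with no filter, 1 with the mean of all probe sets and 0 with only the groups compared. With only the groups compared, the count was 1 in heart at day 7, 6 for untreated heart against kidney and 1 for the heart against kidney response at day 7. The any-day count in heart was 2 in the joint fit. Relative to Nox4, heart at day 1 gave 1 with an added value of 64, 1 with the mean of all probe sets, 2 with the replicate block and 3 with only the groups compared, against 0. The vessel count at day 7 was 0 with the mean of all probe sets. With that mean Rac1 changed sign, to 0.10 in heart at day 3, 0.031 at day 7 and 0.0077 for untreated kidney against brain, and Ncf1 in brain, to 0.037 at day 3 and 0.014 at day 7. The cause was not tested for any of these.

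Leaving out 1 array at a time moved the calls over all genes too. Without day 1 heart 3, 3441 genes passed at day 1, 2671 for any day and 2482 for day 7 against day 1. Without day 1 heart 1 these were 405, 51 and 11. The subunit counts were highest in the first of these fits and 0 in the second. They ranged over 0 to 4 in heart at day 1, 0 to 1 at day 3, 0 to 1 at day 7 and 0 to 5 for any day. The ranges were 0 to 2 for day 3 against day 1, 0 to 4 for day 7 against day 1 and 0 to 3 for the response against kidney at day 1. Relative to Nox4 the subunit counts ranged over 0 to 5 in heart at day 1, 0 to 1 at day 3 and 4 to 6 at day 7. Rac1 ranged from -0.053 to 0.053 in heart at day 3 and from -0.016 to 0.011 at day 7, and Cybb in kidney at day 7 from -0.25 to 1.32. In brain, Ncf1 ranged from -0.49 to 0.28 at day 3 and -0.50 to 0.26 at day 7, Rac2 from -0.45 to 0.20 and -0.44 to 0.20, and at day 7 Cybb from -1.05 to 0.074 and Rac1 from -0.21 to 0.023. The labels do not say that replicate numbers pair the samples, which were fitted as unpaired. Correlations of same-numbered deviations ran from -0.33 to 0.15 in heart (2 of 18 over 0.1), -0.09 to 0.24 in kidney (8 of 12) and -0.65 to 0.48 in brain (2 of 6). With 2 arrays per group the deviations of the 2 replicates mirror each other. Each kidney and brain correlation is thus counted 2 times, and these values do not settle whether the numbers pair samples. With the replicate block, 2 subunits passed in heart at day 1, Ncf1 having an adjusted p of 0.0556. Signals near the array floor, as Nox4 in brain, and 2 arrays per group in kidney and brain limit what could be detected.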
